A study of Rattus norvegicus with 24 samples.

Results

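The genes described here are 8 that mark how heart muscle burns fatty acids, Cd36, Cpt1b, Cpt1a, Acadm, Acadl, Acadvl, Ppara and Ppargc1a, out of 32883 gene rows in each deposited table. They were picked by identifier, as ENSRNOG00000005906 (Cd36), ENSRNOG00000010438 (Cpt1b), ENSRNOG00000014254 (Cpt1a), ENSRNOG00000009845 (Acadm), ENSRNOG00000012966 (Acadl), ENSRNOG00000018114 (Acadvl), ENSRNOG00000021463 (Ppara) and ENSRNOG00000004473 (Ppargc1a). The symbols came with this list of identifiers. The tables hold no symbols, and the reference annotation at hand lists all 8 symbols but no Ensembl number, so it could not test the pairing.

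RNA sequencing covered 24 heart samples of strain WI rats, in 4 groups of 6: DAAO left ventricle with septum, CTL left ventricle with septum, DAAO right ventricular free wall and CTL right ventricular free wall. CTL was read as control. DAAO is the usual short form of D-amino acid oxidase, which forms hydrogen peroxide while it breaks down D-amino acids, and the series title names a chemogenetic heart failure. The labels give neither the vector, promoter and species of the enzyme nor the age, sex, dose and duration, and they do not say what the CTL animals received. Each 4-digit number occurs once per ventricle and was read as 1 animal, named C_ (CTL) or D_ (DAAO) with its number. Every DAAO number is higher than every CTL number, so the DAAO label and anything that follows the numbers cannot be told apart.

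Fatty acids are the main fuel of the adult heart. CD36 helps them across the cell membrane, carnitine palmitoyltransferase 1 commits their acyl-CoA esters to entry into mitochondria, and acyl-CoA dehydrogenases of different chain-length preference catalyse the first step of each beta-oxidation cycle. PPAR alpha is a ligand-activated transcription factor that turns on many genes of this pathway, and PGC-1 alpha is its coactivator and a driver of mitochondrial gene expression.

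All values are normalized counts, the authors' gene counts divided by 1 size factor per library, with each ventricle scaled on its own. Reads recovered from them numbered 15363539 to 23263897 per left and 13280705 to 18777633 per right ventricular library. Differences below are DAAO minus CTL on the scale of log2(normalized count + 1), tested with limma across all genes whose mean was at least 10, and called at a Benjamini-Hochberg adjusted p under 0.05, two-sided. With all animals, 37.3% of 14041 left ventricular genes and 26.5% of 13489 right ventricular genes were called, and the median log2 difference of all genes was 0.01 and 0.02. After scaling all libraries to 1 common total, these medians were 0.21 and 0.27. The calls then split into 4325 higher and 1631 lower in the left ventricle, against 2430 and 2805 with the deposited scaling. In the right ventricle the split was 3802 higher and 933 lower with equal totals, against 1684 and 1890.

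CTL animals C_7000 and C_7005 carry numbers apart from the other CTL numbers, and without them 47.7% of left and 30.7% of right ventricular genes were called. Among the fatty acid genes, C_7005 was the lowest of the 6 CTL libraries for 7 of the 7 tested genes in the left ventricle. C_7000 was among the lowest pair for 5 of 7. The share of all genes with such ranks was not counted. Both animals are kept below unless stated. In tissue RNA, fewer cells of a type and less RNA per cell cannot be told apart. Markers of heart muscle and of other cell types could not be looked up without symbols, so their part in these results was not tested.

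Of the 8 genes, 7 passed the filter on low values in both ventricles, and Cd36 in neither. In the left ventricle 6 of the 7 fell in DAAO (Cpt1b, Cpt1a, Acadm, Acadvl, Ppara and Ppargc1a) and none rose, where 20.0% of all tested genes fell and 17.3% rose. The median log2 difference of the 7 was -0.79, beside 0.01 for all genes. In the right ventricle 2 of the 7 fell (Acadm and Acadvl) and 1 rose (Ppara), where 14.0% of all genes fell and 12.5% rose, and their median was -0.41 beside 0.02 for all genes. The 5 enzyme genes that were tested had negative estimates in both ventricles, though right ventricular Cpt1a was near 0 (-0.04, limma adjusted p = 0.879). The share of all genes with negative estimates in both was not counted. The 2 regulators had negative estimates in the left and positive ones in the right, a combination seen in 12.6% of 13344 genes tested in both. Acadm and Acadvl fell in both ventricles, as did 9.17% of these genes, and Ppara fell in the left and rose in the right, as did 0.112%.

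These counts moved with the processing. With equal library totals, 5 of the 7 fell in the left ventricle (all but Cpt1a and Acadl), where 11.6% of all genes fell. In the right ventricle 1 then fell (Acadvl) and 2 rose (Ppara and Ppargc1a), where 6.92% of all genes fell and 28.2% rose, and the estimate of Cpt1a turned positive. Without C_7000 and C_7005, 7 of the 7 fell in the left ventricle, where 23.5% of all genes fell. In the right 3 then fell (Acadm, Acadl and Acadvl) and 1 rose (Ppara), where 14.8% of all genes fell and 15.9% rose. The 2 tests on recovered reads parted: edgeR called the same 6 in the left (19.3% of all genes lower) and Acadvl alone in the right (13.6% lower), whereas DESeq2 called all 7 lower in the left (21.2% lower). In the right DESeq2 called Acadm, Acadl and Acadvl lower and Ppara higher, where 15.9% of all genes were lower and 14.6% higher.

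**Figure D1:**
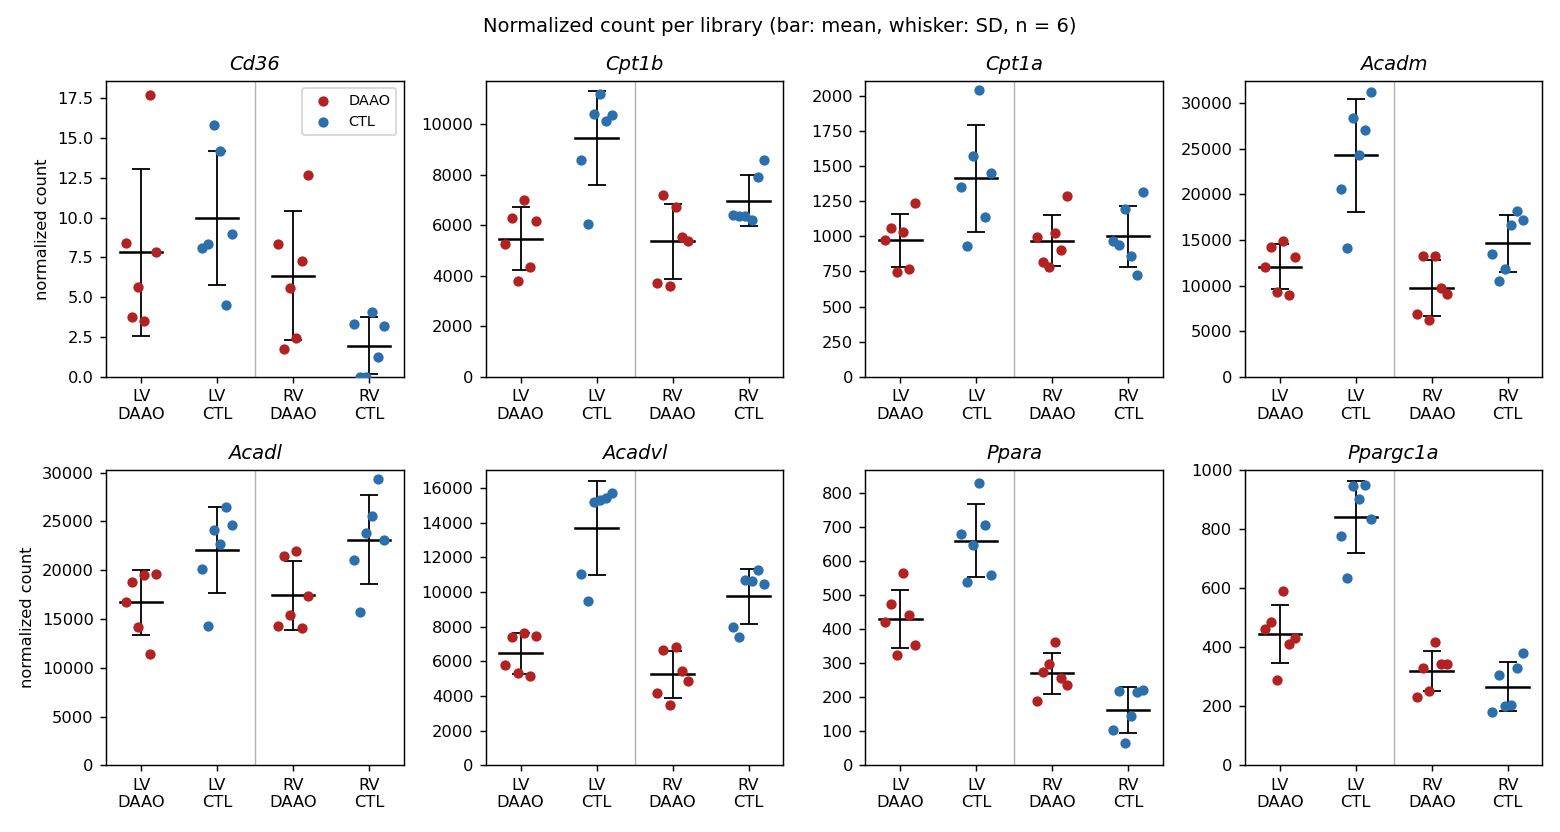
Normalized count of each gene in every library, by ventricle (LV, left; RV, right) and group, with the mean as a bar and the SD as a whisker (n = 6 per group); each panel has its own linear axis from 0. Acadvl and Ppargc1a in the left ventricle and Acadvl in the right have all DAAO libraries below all CTL libraries. This held for 8.28% of tested genes in the left and 5.50% in the right. The Cd36 row never exceeds 17.7.

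The row given as Cd36, the gene of the fatty acid translocase, was almost empty. Left ventricular libraries held 3.53 to 17.7 normalized counts in DAAO (median 6.75) and 4.50 to 15.8 in CTL (median 8.67). Right ventricular libraries held 1.74 to 12.7 in DAAO (median 6.41) and 0 to 4.05 in CTL (median 2.20). These values rest on 2 to 21 recovered reads in the DAAO libraries and on 0 to 14 in the CTL libraries, where a count of 0 allows up to 3 reads (counting error only). CD36 messenger RNA is abundant in heart muscle, so the level of this row goes against its symbol. How reads at this locus were counted is not stated, and the row is not read as the heart's Cd36 expression.

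Cpt1b encodes the muscle form of carnitine palmitoyltransferase 1, the step that commits long-chain fatty acids to oxidation. Its lowest, median and highest left ventricular normalized counts were 3778, 5711 and 6976 in DAAO and 6052, 10241 and 11193 in CTL. The groups met only through C_7005, whose 6052 was the one CTL value inside the DAAO range, while the other 5 CTL animals stood at 8591 or more. Cpt1b averaged 5467 ± 1232 in DAAO and 9450 ± 1869 in CTL (SD, n = 6 each), and fell by 0.79 on the log2 scale (SE 0.17, limma adjusted p = 0.00335).

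Right ventricular Cpt1b ran from 3603 through a median of 5457 to 7192 in DAAO and from 6211 through 6380 to 8572 in CTL. D_7135 and D_7138 were lowest at 3699 and 3603, while D_7137 and D_7142 lay within the CTL range. The log2 difference of -0.42 (SE 0.17, 95% interval -0.79 to -0.04) did not pass the threshold (limma adjusted p = 0.0899), and it did so only without D_7137 among 12 leave-one-out fits (-0.51, limma adjusted p = 0.0333). With equal library totals it was -0.17 (limma adjusted p = 0.356). The left and right differences of Cpt1b did not differ past the threshold (left minus right -0.38, 95% interval -0.91 to 0.15, limma adjusted p = 0.482).

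Cpt1a encodes the liver form of the same enzyme, which the heart also makes. Left ventricular Cpt1a ran from 748 through a median of 1002 to 1240 normalized counts in DAAO and from 929 through 1400 to 2040 in CTL. The groups overlapped, with D_7138 and D_7143 below every CTL animal. Cpt1a fell by 0.52 (SE 0.18, limma adjusted p = 0.0340), a call that lay near the threshold. It was lost without any 1 of C_7000, C_7118, C_7120, C_7123, D_7135, D_7138 or D_7143, at limma adjusted p from 0.0507 to 0.0757, and with equal library totals (-0.32, limma adjusted p = 0.112).

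Right ventricular Cpt1a showed little separation, with a lowest, median and highest of 781, 949 and 1285 in DAAO and 721, 950.2 and 1315 in CTL. Every DAAO value lay inside the CTL range. The log2 difference was -0.04 (SE 0.15, 95% interval -0.37 to 0.29, limma adjusted p = 0.879), and with equal library totals it was 0.21. Left and right differed by -0.48 (95% interval -0.99 to 0.02, limma adjusted p = 0.307).

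The balance of the liver over the muscle form, as the log2 ratio of Cpt1a to Cpt1b within a library, was -2.48 ± 0.17 in DAAO and -2.76 ± 0.23 in CTL left ventricles (SD, n = 6 each). The ratio counts reads and not molecules, since transcript lengths were not used, but its difference between groups does not depend on length. That difference was 0.27 (exact permutation p = 0.0368 over all assignments of the 12 libraries to 6 and 6, two-sided, adjusted p = 0.0736 over 2 ventricles). In right ventricles the ratio was -2.44 ± 0.46 in DAAO and -2.82 ± 0.35 in CTL, a difference of 0.38 (exact permutation p = 0.136). Neither passed the threshold, and the groups overlapped (left ventricle: -2.76 to -2.31 in DAAO, -3.16 to -2.46 in CTL).

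Acadvl encodes the very-long-chain acyl-CoA dehydrogenase of the inner mitochondrial membrane and had the largest fall among the 7 genes in each ventricle. Its lowest, median and highest left ventricular values were 5139, 6596 and 7640 in DAAO and 9481, 15243 and 15717 in CTL. All 6 DAAO libraries lay below all 6 CTL libraries, as for 8.28% of all genes tested there. C_7005 and C_7000 were the lowest CTL animals at 9481 and 11064, and the other 4 stood at 15164 or more. Acadvl averaged 6459 ± 1176 in DAAO and 13695 ± 2704 in CTL (SD, n = 6 each), a ratio of 0.472 and a fall of 1.08 on the log2 scale (SE 0.15, limma adjusted p = 0.000190). Of all left ventricular genes, 2.88% had a lower log2 difference.

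Right ventricular Acadvl ran from 3460 through 5169 to 6822 in DAAO and from 7421 through 10545 to 11242 in CTL. Again no library overlapped, which held for 5.50% of the genes tested there with DAAO lower. It averaged 5244 ± 1340 in DAAO and 9744 ± 1606 in CTL (SD, n = 6 each) and fell by 0.92 (SE 0.17, limma adjusted p = 0.00218). Among the 7 genes it was the one called in both ventricles under every alternative tried, with log2 differences between -1.27 and -0.88 in the left and between -1.08 and -0.67 in the right. The falls did not differ between ventricles past the threshold (left minus right -0.16, 95% interval -0.66 to 0.33, limma adjusted p = 0.805).

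Acadm encodes the medium-chain acyl-CoA dehydrogenase, a classic target of PPAR alpha. Left ventricular Acadm ran from 8958 through 12620 to 14836 in DAAO and from 14073 through 25689 to 31169 in CTL. C_7005, at 14073, was the CTL animal inside the DAAO range, and the next CTL value was 20596. Acadm averaged 12083 ± 2484 in DAAO and 24255 ± 6148 in CTL (SD, n = 6 each), a ratio of 0.498, and fell by 0.99 (SE 0.19, limma adjusted p = 0.00160).

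The lowest, median and highest right ventricular Acadm values were 6177, 9419 and 13237 in DAAO and 10475, 15060 and 18143 in CTL. D_7137 and D_7142 stood at 13209 and 13237, inside the CTL range, and the other 4 DAAO animals lay below every CTL animal. Acadm fell by 0.62 (SE 0.21, limma adjusted p = 0.0415). The direction was kept in all 21 alternatives, but the call was lost in 8 of 12 leave-one-out fits, with edgeR's quasi-likelihood test (adjusted p = 0.0526), with no filter on low values (limma adjusted p = 0.0668) and with equal totals (-0.37, limma adjusted p = 0.113). DESeq2 kept the call (-0.59, adjusted p = 0.0204). The 8 animals were C_7000, C_7120, C_7121, C_7123, D_7135, D_7138, D_7143 and D_7146. Left and right differed by -0.37 (95% interval -0.98 to 0.24, limma adjusted p = 0.566).

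Acadl encodes the long-chain acyl-CoA dehydrogenase and had the smallest estimates among the dehydrogenase genes. Left ventricular Acadl ran from 11365 through 17746 to 19657 in DAAO and from 14289 through 23403 to 26507 in CTL. Only C_7005 among CTL animals lay inside the DAAO range. The log2 difference was -0.40 (SE 0.17, limma adjusted p = 0.0808), which missed the threshold, and without C_7005 it was -0.52 and passed (limma adjusted p = 0.0106). It also passed with DESeq2 (-0.40, adjusted p = 0.0420), whereas with equal library totals it was -0.20 (limma adjusted p = 0.194).

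Right ventricular Acadl ran from 14093 through 16362 to 21920 in DAAO and from 15741 through 23460 to 29389 in CTL, again with C_7005 lowest in CTL. The log2 difference of -0.41 (SE 0.17, limma adjusted p = 0.0880) missed the threshold as well. It passed without C_7005 (-0.51, limma adjusted p = 0.0255) and without D_7137 (-0.47, limma adjusted p = 0.0489), as well as with DESeq2 (-0.41, adjusted p = 0.0449). With equal library totals it was -0.16 (limma adjusted p = 0.372). The estimates in the ventricles were nearly equal (left minus right 0.00, 95% interval -0.50 to 0.51).

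**Figure D2:**
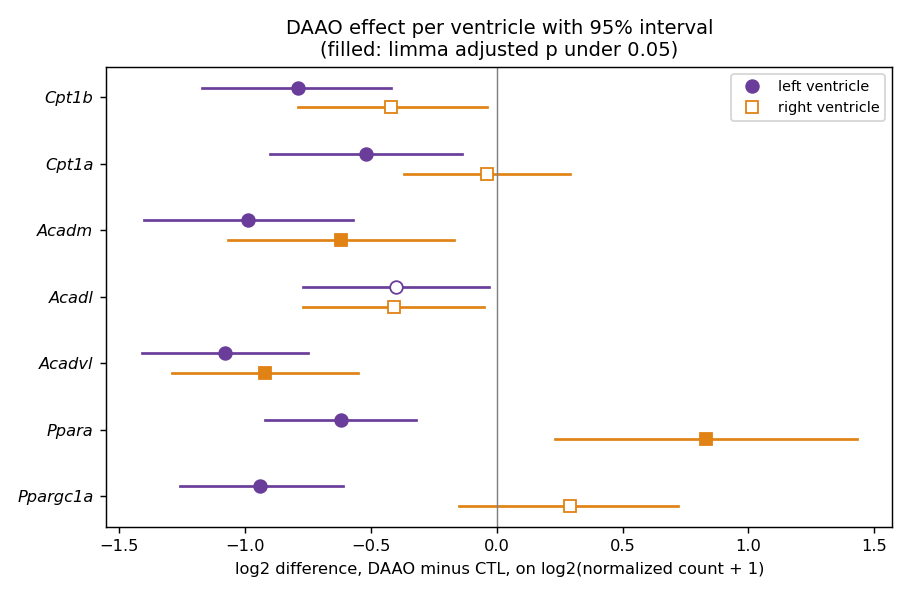
Log2 difference of DAAO minus CTL for the 7 tested genes in the left ventricle (circles) and right ventricle (squares), with 95% intervals from limma; filled symbols have an adjusted p under 0.05. The enzyme genes lie at or left of 0 in both ventricles, while Ppara lies at -0.62 in the left and 0.83 in the right.

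The stretch from 250 bases before to 50 bases after the gene start is shown for Acadm and Acadvl, the genes that fell in both ventricles, because PPAR alpha acts through DNA elements of the AGGTCA type. The sequences are RefSeq's on the rat build GRCr8, which is not the build of the deposited tables, and 6 of the 8 symbols had an entry (all but Cpt1b and Acadl). Capitals mark AGGTCA, the core that nuclear receptors recognise, or the cyclic AMP response element TGACGTCA, searched on both strands.
Acadm, chr2:245542815-245543114, minus strand: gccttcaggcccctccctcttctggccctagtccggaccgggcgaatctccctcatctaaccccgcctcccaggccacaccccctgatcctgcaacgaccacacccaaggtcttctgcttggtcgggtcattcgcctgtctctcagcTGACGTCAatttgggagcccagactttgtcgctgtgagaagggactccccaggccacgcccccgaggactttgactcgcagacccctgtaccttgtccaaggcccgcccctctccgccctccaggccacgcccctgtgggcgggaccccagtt
Acadvl, chr10:55236656-55236955, minus strand: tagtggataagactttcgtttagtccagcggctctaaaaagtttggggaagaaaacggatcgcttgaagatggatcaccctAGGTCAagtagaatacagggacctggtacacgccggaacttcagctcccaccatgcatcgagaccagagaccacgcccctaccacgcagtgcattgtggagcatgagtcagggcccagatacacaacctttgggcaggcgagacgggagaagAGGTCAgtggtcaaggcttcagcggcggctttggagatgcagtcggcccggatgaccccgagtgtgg
Acadvl held AGGTCA at 2 places, 169 and 17 bases before the start counted from the first base of each, and was the 1 of the 6 promoters with this motif, which 16.2% of 33465 rat promoters hold. The Acadm stretch held TGACGTCA 103 bases before the start, a motif in 1.83% of promoters. The full PPAR element AGGTCANAGGTCA was in none of the 6 stretches and in 0.0538% of all. The estrogen-related receptor element TNAAGGTCA was in none of the 6 and in 1.20% of all. Only exact matches were counted (N, any base), and imperfect copies were not searched. The bases after the second AGGTCA of Acadvl, gtggtca, depart from the PPAR element only at the first base of its second copy. A match is a run of letters and no measured binding, and elements outside this window were not searched.

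Ppara encodes PPAR alpha itself. In the left ventricle its lowest, median and highest values were 325, 432 and 563 in DAAO and 537, 662 and 829 in CTL. Of the DAAO animals, 5 lay below every CTL animal, and D_7142 at 563 lay above C_7005 at 537 and C_7123 at 557. Ppara averaged 429.8 ± 85.7 in DAAO and 659 ± 107 in CTL (SD, n = 6 each) and fell by 0.62 (SE 0.14, limma adjusted p = 0.00354).

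In the right ventricle the order of the groups turned round. Ppara ran from 189.7 through 266 to 363 in DAAO and from 66.3 through 180.3 to 222 in CTL. The same number of DAAO animals, 5, lay above every CTL animal, and D_7135 at 189.7 was the exception. CTL libraries were widely spread, with C_7118 at 66.3 and C_7000 at 104 against C_7005, C_7121 and C_7123 at 219.6, 216 and 222. Ppara averaged 269.6 ± 58.6 in DAAO and 162 ± 67.3 in CTL (SD, n = 6 each), a ratio of 1.66.

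The right ventricular rise of 0.83 on the log2 scale (SE 0.28) lay near the threshold (limma adjusted p = 0.0408). Leaving out any 1 of C_7000, C_7118, C_7120, D_7137, D_7138, D_7142, D_7143 or D_7146 lost the call, at limma adjusted p up to 0.0810 and log2 differences of 0.60 or more. It was also lost with edgeR (0.74, adjusted p = 0.0571) and with no filter on low values (limma adjusted p = 0.0570), but kept with DESeq2 (0.73, adjusted p = 0.0279) and with equal library totals (1.08, limma adjusted p = 0.00909). The sign stayed positive in all 21 alternatives.

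Ppargc1a encodes PGC-1 alpha, the coactivator. In the left ventricle it ran from 289 through 446 to 590.1 in DAAO and from 636 through 869 to 951 in CTL. No library overlapped, with the highest DAAO animal, D_7142, below the lowest CTL animal, C_7005, as for 8.28% of all genes tested there. Ppargc1a averaged 444 ± 98.7 in DAAO and 841 ± 121 in CTL (SD, n = 6 each), a ratio of 0.528, and fell by 0.94 (SE 0.15, limma adjusted p = 0.000430). Of all left ventricular genes, 4.03% had a lower log2 difference.

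Right ventricular Ppargc1a ran from 231 through 336 to 419 in DAAO and from 180.2 through 254 to 380.4 in CTL. The groups overlapped broadly, and D_7142 alone lay above every CTL animal. The log2 difference of 0.29 (SE 0.20, 95% interval -0.15 to 0.72) did not pass the threshold (limma adjusted p = 0.306). With equal library totals it was 0.54 and passed (limma adjusted p = 0.0417), and without C_7000 it was 0.19 (limma adjusted p = 0.517).

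The promoter stretch of Ppargc1a is shown because the gene's estimates had opposite signs in the ventricles. The right ventricular estimate did not pass the threshold. A further reason is that the gene's control by cyclic AMP signalling through such an element is well known. Whether the element bears on these estimates was not tested. The stretch held TGACGTCA, in capitals, 181 bases before the start.
Ppargc1a, chr14:63634058-63634357, plus strand: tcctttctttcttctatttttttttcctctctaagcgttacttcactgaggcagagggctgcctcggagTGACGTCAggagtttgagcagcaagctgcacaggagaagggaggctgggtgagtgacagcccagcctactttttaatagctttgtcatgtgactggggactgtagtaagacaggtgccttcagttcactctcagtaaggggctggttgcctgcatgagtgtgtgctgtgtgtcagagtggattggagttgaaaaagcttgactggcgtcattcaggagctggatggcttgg
Of the 6 promoters, those of Acadm and Ppargc1a held this motif.

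Whether the DAAO effect differed between the ventricles was tested in 1 limma fit over all 24 libraries for 13344 genes, of which 2.93% were called. The 2 regulators were called, both with a negative left minus right difference, as were 1.36% of genes, and none of the 5 enzyme genes was. The left minus right effect on Ppara was -1.45 on the log2 scale (SE 0.33, 95% interval -2.14 to -0.77, limma adjusted p = 0.0196), and 0.405% of all genes had a more negative difference. For Ppargc1a it was -1.23 (SE 0.26, 95% interval -1.77 to -0.68, limma adjusted p = 0.0153), with 0.907% of genes more negative. With the animal as a block the adjusted p was 0.00971 for Ppara and 0.00578 for Ppargc1a, while the count of genes called was 1072, against 391 without the block.

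The calls of the fit without the block depended on single animals. The fit with the block was not repeated with animals left out. For Ppara the adjusted p was over the threshold without C_7000, C_7120, D_7138 or D_7146, at up to 0.0651, and for Ppargc1a without C_7118 or D_7146, at up to 0.0550. The estimates stayed between -1.62 and -1.23 for Ppara and between -1.36 and -1.12 for Ppargc1a over the 12 leave-one-out fits. Both genes were called under each of the other alternatives, without C_7000 and C_7005 included.

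**Figure D3:**
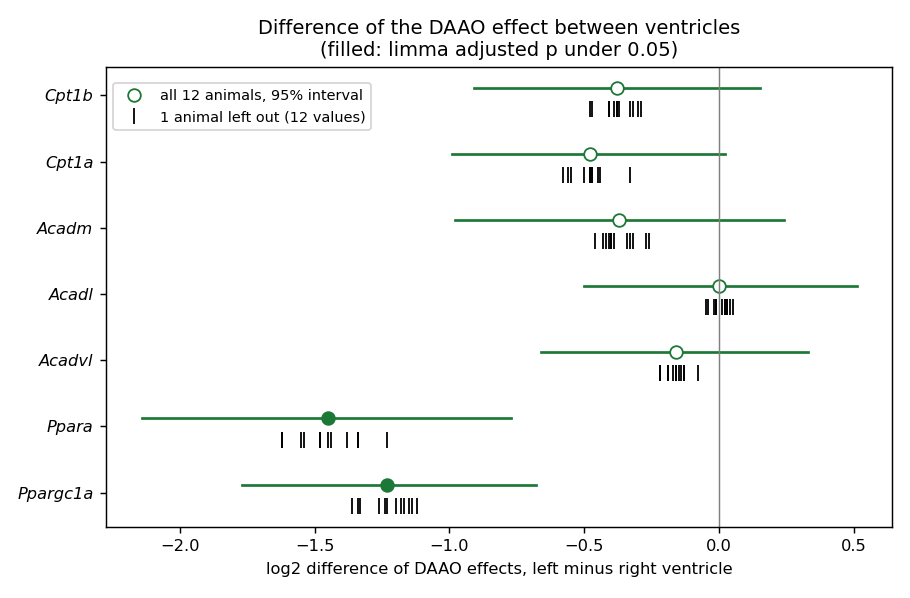
Left minus right DAAO effect on the log2 scale for the 7 tested genes, with the 95% interval from limma over all 12 animals (circles; filled where the adjusted p is under 0.05) and the estimates with 1 animal left out (ticks). Ppara and Ppargc1a lie between -1.62 and -1.12 in every fit, and the enzyme genes have intervals that include 0.

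Set side by side, and bearing in mind that the tables were scaled separately, the level of Ppara in DAAO was 325 to 563 in the left and 189.7 to 363 in the right ventricle, and in CTL 537 to 829 in the left and 66.3 to 222 in the right. Ppargc1a in DAAO was 289 to 590.1 in the left and 231 to 419 in the right, and in CTL 636 to 951 in the left and 180.2 to 380.4 in the right. The left and right ranges thus overlapped in DAAO for both genes and did not in CTL. The share of all genes with such ranges was not counted, so this is not shown to be particular to these genes. Across the scaling of 2 tables these levels carry no test of their own.

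By animal, the DAAO hearts differed in how low the genes stood at the deposited scaling. Values of a library share 1 size factor and several of the genes varied together, so these ranks are not separate observations. Ranks over all genes, or with equal library totals, were not taken. D_7138 was among the lowest pair of the DAAO left ventricles for 7 of 7 genes and of the right ventricles for 5 of 7. D_7142 was the highest DAAO animal for 5 of 7 genes in each ventricle. D_7143 was among the lowest pair for 6 of 7 in the left ventricle but 1 of 7 in the right, and D_7135 for none in the left and 6 of 7 in the right. In CTL right ventricles C_7005 was lowest for 3 of 7 genes, all of them dehydrogenase genes, and not for the regulators.

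**Figure D4:**
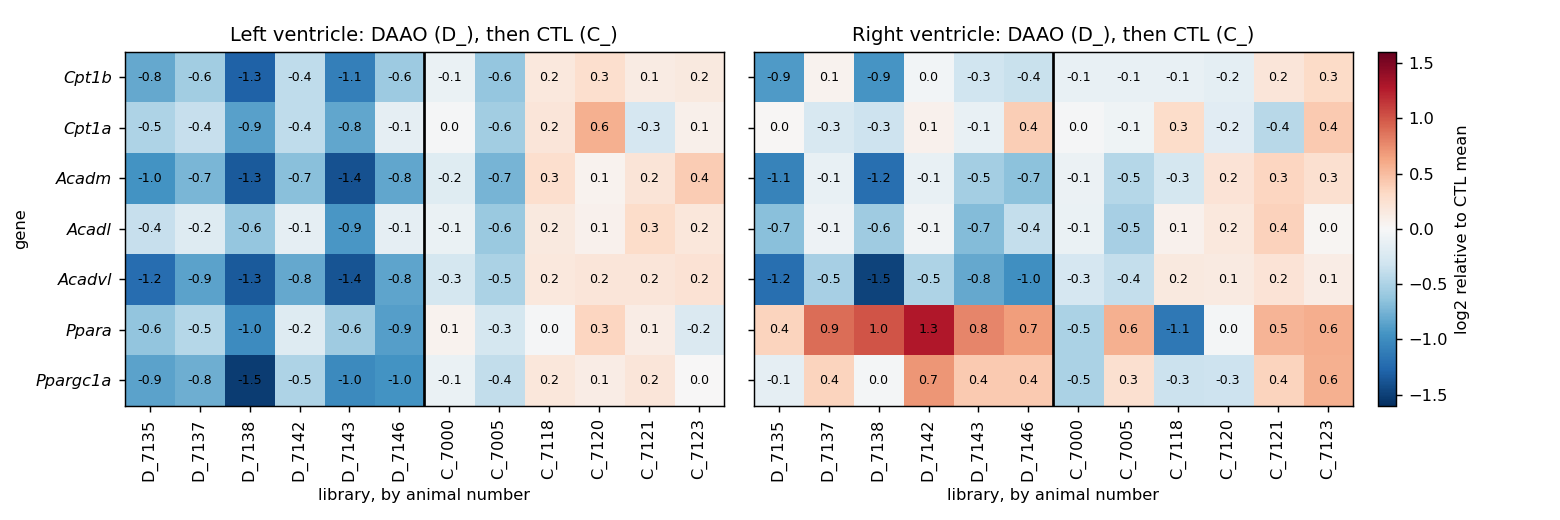
Log2 of each library's normalized count + 1 relative to the CTL mean of the same ventricle, for the 7 tested genes (rows) and 12 animals (columns, DAAO left of the line and CTL right of it). Left ventricular DAAO columns are negative throughout, with the lowest value of each gene in D_7138 or D_7143, whereas in the right ventricle the Ppara row is positive in all 6 DAAO animals.

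Within the groups, the genes varied together to different degrees. Likeness was measured as the Pearson correlation of deviations from the group mean over the 12 libraries of a table, averaged over both tables, as a description with no test. The points share library scaling and, between genes, the same tissue pieces. Acadm and Acadvl had an average r of 0.92 (0.94 in the left and 0.90 in the right), and Acadvl ranked 8th of 13343 genes in likeness to Acadm. Cpt1b and Acadm had 0.91, and Acadm ranked 54th in likeness to Cpt1b.

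Ppara was most like Ppargc1a among these genes, at 0.79 in the left and 0.77 in the right, and Ppargc1a ranked 64th of 13343 genes for it. Ppargc1a was itself closest, among these genes, to Cpt1b, at 0.89 and 0.75. In the right ventricle Ppara had an r of 0.11 with both Acadl and Acadvl. Cpt1a had an r of 0.59 or more with each gene but Ppara (0.44) in the left ventricle, and between -0.29 and 0.16 with all 6 in the right. Other genes with like patterns are not named, because their identifiers carry no symbols.

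**Figure D5:**
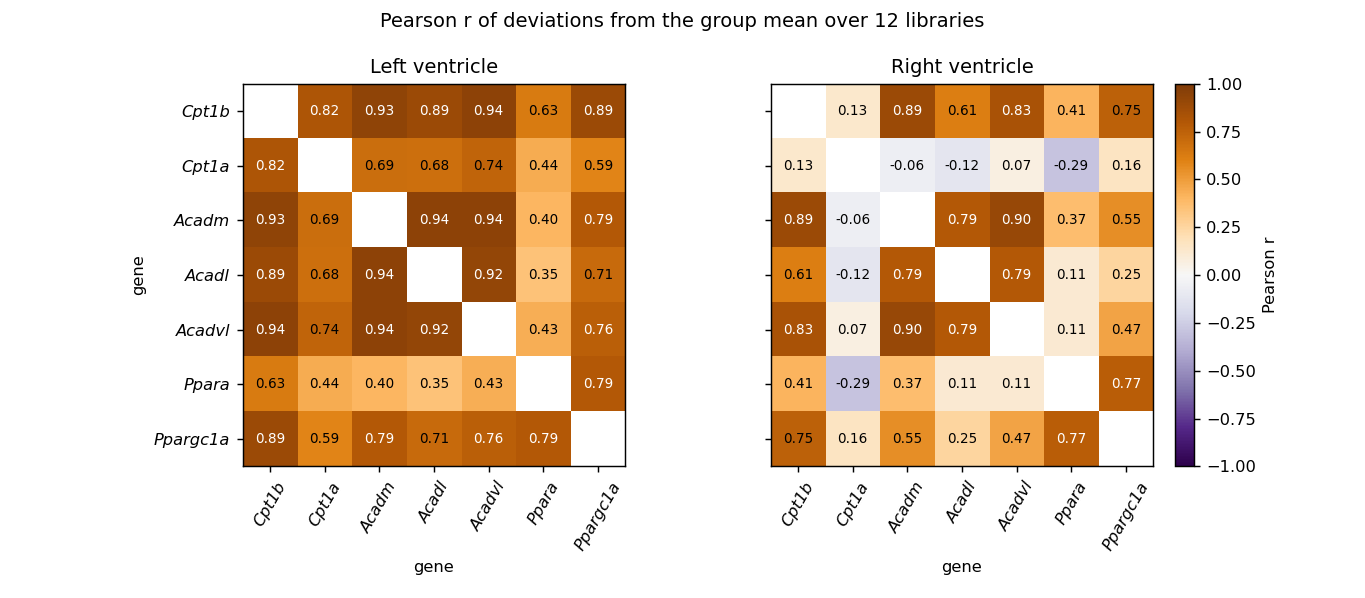
Pearson r between pairs of the 7 tested genes in each ventricle, from deviations of log2(normalized count + 1) from the group mean over 12 libraries. Cpt1b and the 3 dehydrogenase genes form a block at 0.89 or more in the left and 0.61 or more in the right ventricle, and Cpt1a lies apart in the right.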

How the data were processed

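Novogene made and sequenced paired-end libraries from Trizol RNA of frozen hearts, per the labels' protocols. The submitters' processing notes name the build Rnor_6.0, DESeq2 1.26.0, STAR 2.7.0a and FastQC. Counter, annotation and strand setting were not stated, so rows that overlap another gene or have a near copy are uncertain. The authors deposited 1 table per ventricle with a normalized signal, gene counts divided by 1 size factor per library. In all 24 libraries 100% of values above 0 were whole multiples of the smallest one in that library (tolerance 1e-06), and dividing by it gave back the reads. No 2 libraries of a group agreed within sampling noise (chi-square over degrees of freedom at least 12.3 in the left and 20.9 in the right ventricle).

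Deposited values, plus a pseudocount of 1 and on the log2 scale, were tested with limma 3.58.1 (R 4.3.3, variance trend) over genes with a mean of at least 10 and Benjamini-Hochberg adjustment over all of them. This scale understates changes of low genes. The difference between ventricles was fitted over all 24 libraries. The recovered reads were tested with edgeR 4.0.16 (quasi-likelihood), which called 5230 left and 3497 right ventricular genes, and with DESeq2 1.42.0. Other alternatives were the pseudocount, the filter, the scaling and leaving out animals. The fits were also run on simulated reads with known changes, with edgeR and DESeq2 for the left ventricle only. Each simulated library was drawn on its own, without the pairing of ventricles. Only the size of the estimates was held to a limit and not the number of false calls, so this run does not bear on the calls. Same-numbered left and right libraries deviated together with r from 0.06 to 0.79 (median 0.55 over 12 animals), and 9 of 12 left libraries correlated best with their own number. Those that did not were all CTL: C_7118, C_7120 and C_7123, with r of 0.06, 0.06 and 0.25. The fit with the animal as a block relies on these pairs too. No label says that a number is an animal, and p-values measure the spread between these samples, which may be technical.

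All 8 genes were named with their values. The reference matched 0 of 32883 identifiers, so pathway lists and cell type markers chosen by symbol could not be used. The genes, lists and tests were chosen with earlier results of these data known.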

Additional observations from a re-analysis of the deposited data

Results flagged for a closer look

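The DAAO effect on 2 genes differed between the ventricles when that difference was tested directly. The left minus right difference was -1.45 on the log2 scale for Ppara and -1.23 for Ppargc1a, both at a limma adjusted p under the threshold (0.0196 and 0.0153). Of all genes tested in both ventricles, 2.93% were called, and 1.36% with a negative difference. With 1 animal left out, the call was lost in 4 of 12 fits for Ppara and in 2 of 12 for Ppargc1a. In 1 of 32 groups of 6 libraries, a sample lay far from the rest: D_7143 held 17.7 normalized counts of the row given as Cd36 in the left ventricle, where the other DAAO libraries held 3.53 to 8.38. Chance alone flags about 1 group in 20, and this value rests on 21 reads.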

How the results depend on the processing

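Of 448 values of the 7 tested genes under the alternatives, 392 kept their direction and their side of the threshold, 35 lost their call, 9 gained one and 12 changed sign. The calls of Acadvl in both ventricles and of Cpt1b, Acadm, Ppara and Ppargc1a in the left held in every alternative. The sign changes concerned 2 estimates near 0. The right ventricular log2 difference of Cpt1a was 0.21 with equal library totals and ran from -0.12 to 0.05 when 1 animal was left out. The left minus right difference of Acadl was -0.04 with equal totals and -0.01 without C_7000 and C_7005, and ran from -0.05 to 0.05 when 1 animal was left out. The count of genes whose effect differed between ventricles was 391, and was 236 without C_7000 and C_7005, 723 with DESeq2 on recovered reads and 1072 with the replicate block. With 1 animal left out and no block it ran from 84 (without D_7146) to 616 (without D_7137). The replicate block changed no call of the 7 genes. With 1 animal left out, the difference in the Cpt1a to Cpt1b log2 ratio ran from 0.19 to 0.33 in the left ventricle, where it passed the threshold without C_7120 or D_7137 or D_7142, and from 0.25 to 0.52 in the right, where it passed without D_7137. The cause of these shifts was not tested. Depth limits the Cd36 row, at 21 reads or fewer per library.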
